A study of Mus musculus with 4 samples.

Results

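The Slc25 genes encode the mitochondrial carriers, the largest group of transport proteins in the inner mitochondrial membrane. Every gene of the deposited table whose symbol was Slc25a followed by a number was taken as a member, which gave 43 of 16537 genes. The rule used symbols and no measured value, but the family was chosen with earlier results of these data known. RNA-seq was carried out on YUMM1.7 cells, a mouse melanoma line engineered with activated *Braf* and inactivated *Cdkn2a* among its changes, whose genotype is labelled wildtype in all libraries. Cells were grown on membranes with 1-µm pores, and the cell bodies scraped from the top were compared with the protrusions left in the pores and on the underside. Each fraction had 2 libraries, labelled as biological replicates 1 and 2 and each made from 6 inserts, and apart from the separation no treatment was given. All libraries come from 1 cell line, so the p-values below measure the spread between these samples.

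Carriers move adenine nucleotides, phosphate, carboxylates, amino acids and cofactors across the inner membrane, and so link the matrix to the rest of the cell. They are encoded in the nucleus, made on cytosolic ribosomes and brought into the inner membrane through the TOM complex, the small TIM chaperones and the TIM22 complex. Most proteins of the other Slc families are inserted at the endoplasmic reticulum and work in the plasma membrane or in organelles of the secretory and endolysosomal routes.

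The family is recognised by a signature that is repeated along the protein, made of a proline, any residue, an acidic residue (aspartate or glutamate), any 2 residues and a basic residue (lysine or arginine). Searched in the coding sequences of the GENCODE transcripts of GRCm38, read in frame on the coding strand, it occurred 3 times in 25 of the 43 members, 2 times in 10, 1 time in 5 and not at all in 3, namely *Slc25a46*, *Slc25a51* and *Slc25a53*. At least 3 copies occurred in 58.1% of the members, in 0.413% of 242 other Slc genes and in 2.83% of 14153 coding genes outside the family. A match is a description of these letters, and further repeats that depart from the pattern were not searched for. The coding bases of the signatures are shown for the 3 carriers whose mRNAs rose in protrusions and for *Slc25a40*, the closest relative of 1 of them, so that the shared repeat can be compared; capitals mark the codons of the proline, the acidic and the basic residue.
Slc25a39, residue 31: CCCctgGATgtggtgAAG
Slc25a39, residue 181: CCCttgGAGctcgtgCGG
Slc25a39, residue 275: CCCttcGATgtggtgAAG
Slc25a40, residue 36: CCCctgGATgttgttAAA
Slc25a40, residue 162: CCAttaGAAttgatcAGA
Slc25a40, residue 256: CCAtttGATgtagtaAAA
Slc25a1, residue 45: CCGaccGAAtacgtgAAG
Slc25a1, residue 142: CCTatgGAGaccatcAAG
Slc25a1, residue 240: CCTttgGATgtgatcAAG
Slc25a3, residue 80: CCCctgGACttagtaAAG
Slc25a3, residue 177: CCTatgGAAgctgctAAA

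In YUMM1.7 cells the fold changes of the carrier mRNAs between the fractions centred near 0, with a few higher in protrusions, while those of the other Slc genes lay mostly on the cell body side. Of the 33 members with a mean of at least 1 TPM (a length-scaled share of the library), 3 were higher in protrusions and 0 were lower (limma on log2(TPM + 0.5), adjusted p under 0.05). None of the 33 had a mean under 1 TPM in either fraction, and the fewest reads of a tested member in a library were 39. The 3 called were *Slc25a39*, a glutathione carrier, *Slc25a1*, the citrate carrier, and *Slc25a3*, the phosphate carrier. Of all 11400 genes tested, 2.99% were called higher and 4.25% lower. At an unadjusted p under 0.05, 7 members were higher and 1 was lower, against 12.6% and 18.7% of all genes. With the replicate number as a block, limma called 4 members higher, the fourth being *Slc25a16*, and 0 lower, against 8.08% and 13.3% of all genes. The limma adjusted p with the block was 0.00156 for *Slc25a39*, 0.00500 for *Slc25a1* and 0.0133 for *Slc25a3*. Without a block, none of these calls stood when any 1 of the 4 libraries was left out, and limma without the trend or with no minimum on TPM called 0 members and 0 of all genes.

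In TPM, a difference is a change in a gene's share of the RNA of a fraction, not in molecules per cell. More protrusions that carry an mRNA and more of it in each protrusion cannot be told apart in these bulk samples. The recovered depth was 25854944 to 30994908 reads per library, with 14784 to 15123 genes detected. *Kif1c*, on which the study centred, and the protrusion mRNAs *Rab13*, *Net1* and *Cyb5r3* were higher in protrusions in 4 of 4 cases. The paper's evenly spread controls *Ppia*, *Ywhaz*, *Rhoa* and *Arpc3* had log2 fold changes of −0.08 to 0.27 and did not pass. For *Ppia* and *Rhoa* both protrusion libraries lay above both cell body libraries. The melanocyte gene *Mitf* was at 5.12 and 5.93 TPM in cell bodies and 5.45 and 6.17 TPM in protrusions, and *Pmel* and *Tyr* were under 1 TPM in every library, so these pigment markers were largely absent. Protrusions replicate 1 stood apart in 20 liver genes, summed at 79.0 TPM there against 7.07, 11.3 and 22.1 TPM in cell bodies replicates 1 and 2 and protrusions replicate 2, and 19 of the 20 were highest in it. The exception was *Ass1*, at 5.53 and 7.94 TPM in cell bodies and 11.5 and 18.4 TPM in protrusions. Outside protrusions replicate 1, *Ass1* made up most of the sum. *Alb*, which encodes albumin, was at 0.0635 and 0.264 TPM in cell bodies and 28.4 and 0.460 TPM in protrusions. The 4 blood genes summed to 2.10 to 3.98 TPM, most of it from *Cd68*. Without protrusions replicate 1 the log2 fold changes of the 3 called carriers were 0.90 for *Slc25a39*, 0.90 for *Slc25a1* and 0.53 for *Slc25a3*, none smaller than with it.

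The level of the carriers covered a wide range. Among the 33 tested members the mean TPM ran from 1.09 for *Slc25a21* to 1016 for *Slc25a5*, with a median of 19.3 TPM, against 13.2 TPM over the 123 other Slc genes tested. The group at 100 TPM or more held 4 members, *Slc25a5*, *Slc25a4*, *Slc25a3* and *Slc25a24*, while 19 lay at 10 to 100 TPM and 10 at 1 to 10 TPM. In the order of levels, each of these 4 lay above the next in all 4 libraries, and *Slc25a24* also lay above *Slc25a39*. Lower down, *Slc25a43* and *Slc25a47*, and *Slc25a45* and *Slc25a21* were also separated, and 25 of the 32 neighbouring pairs overlapped. The ADP/ATP carriers and the phosphate carrier, which supply the ATP synthase and export its product, made up 68.7% to 70.4% of the summed TPM of the family in each library.

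**Figure D1:**
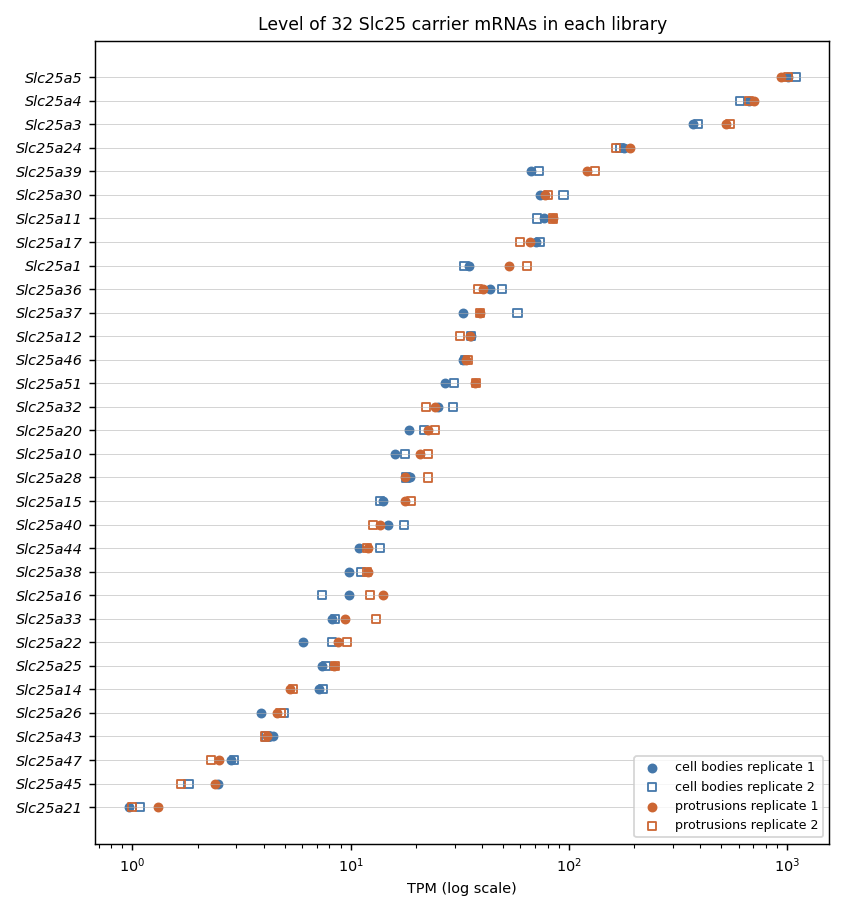
TPM of 32 of the tested carriers (rows, ordered by mean) in each library on a log axis, with blue for cell bodies, orange for protrusions, circles for replicate 1 and squares for replicate 2. The levels span 1.09 to 1016 TPM, and the orange symbols stand apart from the blue ones for *Slc25a39*, *Slc25a1* and *Slc25a3*. They also stand apart for members that did not pass without the block, such as *Slc25a16* and *Slc25a51*.

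The summed level of the family was close in both fractions. Its 43 members summed to 2920 and 3033 TPM in cell bodies and 3160 and 3224 TPM in protrusions, so the sums were 1.07-fold higher in protrusions and did not overlap. Without *Slc25a3*, *Slc25a4* and *Slc25a5* they were 865 and 932 TPM in cell bodies and 990.5 and 986 TPM in protrusions. The 245 other Slc genes went the other way, with 4123 and 4418 TPM in cell bodies and 3343 and 2762 TPM in protrusions, a ratio of 0.715. These sums are descriptions with no test.

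Gene by gene, the median log2 fold change of the 33 members, protrusions over cell bodies, was 0.09, and 20 of 33 lay above 0. The median was −0.07 over all genes tested and −0.47 over the 123 other Slc genes, of which 16 lay above 0. Without protrusions replicate 2 the median of the other Slc genes was −0.30, and without protrusions replicate 1 it was −0.59. All 33 members lay above the median of the other Slc genes, and for 23 of them the 95% confidence interval did too. That median is low for the whole table as well, since 17.9% of all genes tested lay below it and the rest did not. The lowest member, *Slc25a14*, lay above 69 of the 123 other Slc genes (56.1%), and above 21.1% of all genes. In 14 of the 33 members both protrusion libraries were above both cell body libraries, in 7 they were below and in 12 the fractions overlapped, while 26.4% of all genes tested were above and 37% below. For the other Slc genes these counts were 5 above and 88 below. Of the 30 members that did not pass, 29 had an interval within a 2-fold difference in either direction, and the interval of *Slc25a16* reached past it.

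**Figure D2:**
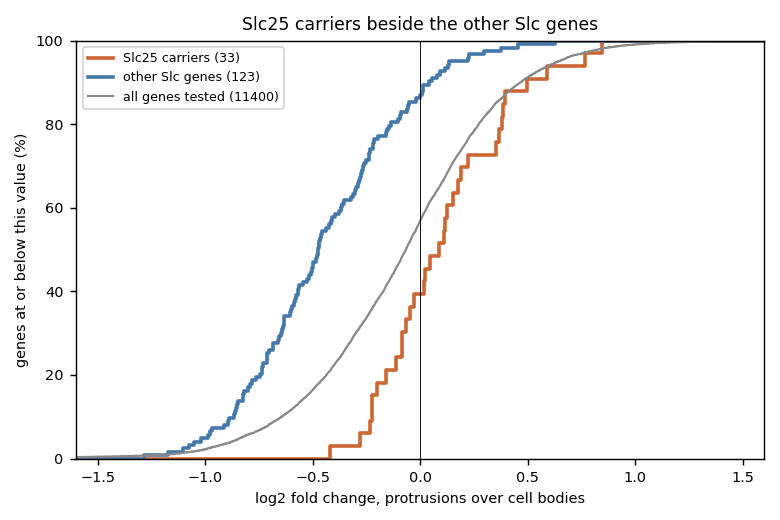
Cumulative share of genes (y, %) at or below a given log2 ratio of protrusions to cell bodies (x), for 33 Slc25 carriers (orange), 123 other Slc genes (blue) and all 11400 genes tested (grey). The orange line starts at −0.42 and lies to the right of the grey line over most of its course, while the blue line runs to the left of it, and the medians are 0.09 (orange), −0.07 (grey) and −0.47 (blue).

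**Figure D3:**
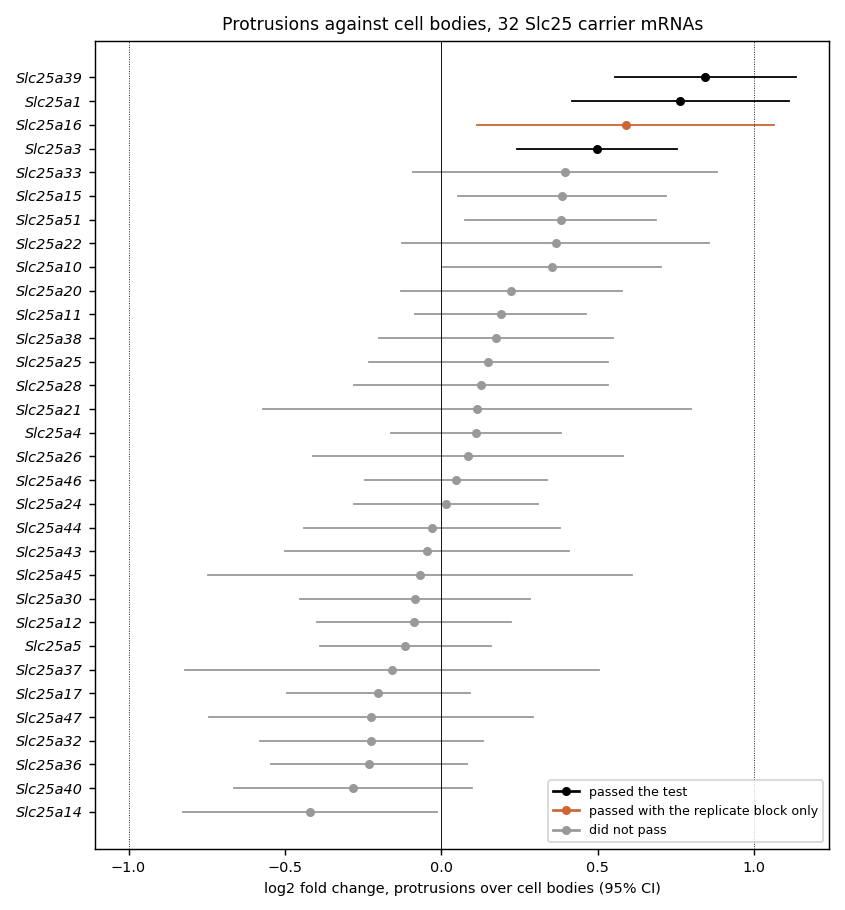
Log2 fold change, protrusions over cell bodies, of 32 of the tested carriers (rows) with 95% confidence intervals from limma and dotted lines at a 2-fold difference. Black marks the 3 that passed, orange the 1 that passed with the replicate block alone, and grey the other 28, which lie between −0.42 and 0.40.

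*Slc25a39* had the largest fold change of the family. SLC25A39 brings glutathione, the main thiol antioxidant of the cell, into mitochondria. Its gene lies at chr11:102402975-102407517 (mm10, minus strand). It was at 66.9 and 73.3 TPM in cell bodies replicates 1 and 2 and at 121 and 132 TPM in protrusions replicates 1 and 2. Both protrusion libraries were far above both cell body libraries, by a like ratio in each replicate. The means were 70.1 ± 4.51 and 126 ± 7.51 TPM (SD over 2 libraries), and the log2 fold change was 0.84 (SE 0.12, 95% confidence interval 0.55 to 1.13, limma adjusted p = 0.0349). Of all genes tested, 98.1% had a lower fold change. A microRNA gene inside it on the same strand, *Mir6930*, was at 0 TPM in 3 libraries and 2.27 TPM in cell bodies replicate 2. That value rests on 2 recovered reads.

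Its closest relative did not move with it. *Slc25a40*, whose product is the other glutathione carrier and is 52.7% identical to SLC25A39 over the aligned translated coding sequences, was at 14.8 and 17.5 TPM in cell bodies and 13.6 and 12.7 TPM in protrusions. Here the protrusion libraries were both below the cell body libraries, with a log2 fold change of −0.28 (interval −0.66 to 0.10, limma adjusted p = 0.265) that did not pass the test and became 0.05 after correction for GC content. The ratio of *Slc25a39* to *Slc25a40* was 4.53 and 4.18 in cell bodies and 8.89 and 10.3 in protrusions, a description with no test.

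*Slc25a1* exports citrate, the source of cytosolic acetyl-CoA for lipid synthesis, and lies at chr16:17925210-17928219 (mm10, minus strand). It was at 35.1 and 33.3 TPM in cell bodies and at 53.0 and 64.3 TPM in protrusions. The fractions did not overlap, and the protrusion libraries differed from each other more than the cell body libraries did. The means were 34.2 ± 1.26 and 58.6 ± 7.97 TPM (SD over 2 libraries), and the log2 fold change was 0.76 (SE 0.14, interval 0.42 to 1.11, limma adjusted p = 0.0418). After correction for GC content it was 0.59 and no longer passed (limma adjusted p = 0.0613), and 0.59 with an adjusted p of 0.00311 when limma also had the replicate block.

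*Slc25a3* brings in the phosphate for ATP synthesis and also carries copper, and it lies at chr10:91116577-91123963 (mm10, minus strand). It was at 371 and 392 TPM in cell bodies and 527 and 551 TPM in protrusions. Both replicates rose by nearly the same ratio, 1.42 and 1.40, and the fractions stood well apart. The means were 382 ± 15.3 and 539 ± 16.9 TPM (SD over 2 libraries), and the log2 fold change was 0.50 (SE 0.10, interval 0.24 to 0.75, limma adjusted p = 0.0483). Leaving out 1 library at a time gave limma adjusted p-values of 0.106 to 0.236 for *Slc25a3*, 0.0584 to 0.163 for *Slc25a39* and 0.0622 to 0.207 for *Slc25a1*, with every fold change still above 0.

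**Figure D4:**
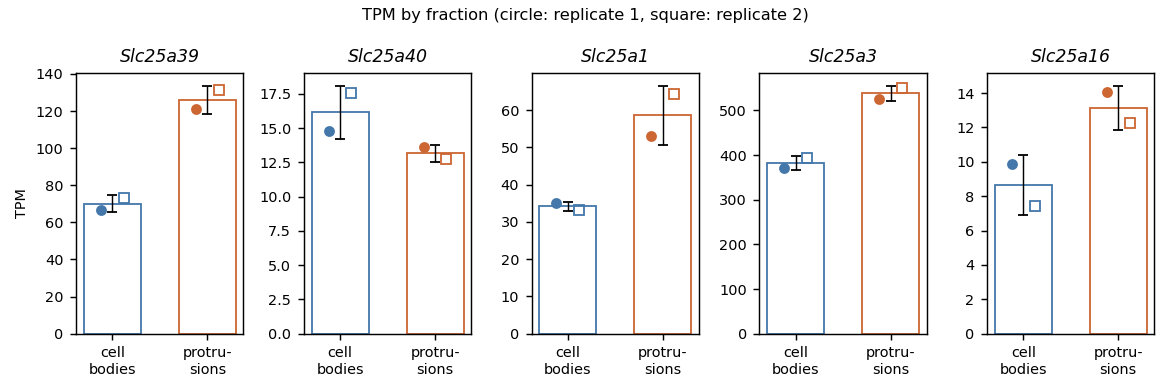
TPM by fraction of *Slc25a39*, its relative *Slc25a40*, *Slc25a1*, *Slc25a3* and *Slc25a16*, each on its own axis from 0; bars are means of 2 libraries, error bars SD, circles replicate 1 and squares replicate 2. The protrusion libraries lie above the cell body libraries in every panel but that of *Slc25a40*, where they lie below.

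Among the carriers of adenine nucleotides and phosphate, 1 of 5 tested members rose (*Slc25a3*), 0 fell and the median log2 fold change was 0.11. Over all genes 2.99% rose and 4.25% fell. *Slc25a5* and *Slc25a4*, the ADP/ATP carriers that export ATP from the matrix and 89.6% identical in their translated coding sequences, were the most abundant members. *Slc25a5* was at 1012 and 1100.2 TPM in cell bodies and 935 and 1015 TPM in protrusions, and *Slc25a4* was at 672 and 608 TPM in cell bodies and 708 and 672 TPM in protrusions. The fractions overlapped for both, with log2 fold changes of −0.11 (interval −0.39 to 0.16) and 0.11 (interval −0.16 to 0.38). Their sum was 1684 and 1708 TPM in cell bodies and 1643 and 1687 TPM in protrusions and made up 57.7% and 56.3% of the family's TPM in cell bodies and 52.0% and 52.3% in protrusions, a description with no test. Reads of such close copies could be split between them, and RefSeq also lists a pseudogene of *Slc25a5*.

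The ATP-Mg/phosphate carriers, which are regulated by calcium, differed in level far more than in distribution. *Slc25a24* was at 179 and 172 TPM in cell bodies and 190.5 and 165 TPM in protrusions, where the fractions overlapped (log2 fold change 0.01, interval −0.28 to 0.31). *Slc25a24* was at 19.4 to 24.1 times the TPM of *Slc25a25*, which stood at 7.42 and 7.75 TPM in cell bodies and 8.43 and 8.52 TPM in protrusions (log2 fold change 0.15, interval −0.23 to 0.53). *Slc25a23* was nearly absent, at 0.0579 and 0.0688 TPM in cell bodies and 0.220 and 0.105 TPM in protrusions, and was not tested.

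Among the carriers of other nucleotides and of cofactors, 0 of 8 tested members passed without a block, and the median log2 fold change was 0.05. Over all genes 2.99% passed as higher and 4.25% as lower. *Slc25a16*, whose yeast relative Leu5 is needed for coenzyme A in mitochondria, lies at chr10:62920632-62946494 (mm10, plus strand). It was at 9.87 and 7.42 TPM in cell bodies and 14.1 and 12.2 TPM in protrusions. Both protrusion libraries were above both cell body libraries, and replicate 1 was the higher in each fraction. Its log2 fold change was 0.59 (interval 0.11 to 1.06), with a limma adjusted p of 0.107 without the block and 0.0437 with it.

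The pair of pyrimidine nucleotide carriers leaned in opposite directions without passing. *Slc25a33* was at 8.26 and 8.46 TPM in cell bodies and 9.47 and 13.1 TPM in protrusions (log2 fold change 0.40, interval −0.09 to 0.88). Its fold change was 0.62 without protrusions replicate 1 and 0.17 without protrusions replicate 2. *Slc25a36* was at 43.6 and 49.3 TPM in cell bodies and 40.5 and 38.4 TPM in protrusions (log2 fold change −0.23, interval −0.54 to 0.08), a difference that became 0.08 after correction for GC content. Neither pair of libraries overlapped between the fractions, and the translated coding sequences were 62.3% identical. *Slc25a17*, which serves peroxisomes rather than mitochondria and carries coenzyme A, FAD and NAD, was at 71.1 and 73.7 TPM in cell bodies and 66.4 and 59.5 TPM in protrusions. Its log2 fold change was −0.20 (interval −0.49 to 0.09) and 0.02 after the GC correction. Of the other tested members, 3 carry S-adenosylmethionine (*Slc25a26*), folate or FAD (*Slc25a32*) and NAD (*Slc25a51*), and had log2 fold changes of −0.22 to 0.38. The highest of these was *Slc25a51*, named here for its values, at 27.2 and 29.8 TPM in cell bodies and 37.02 and 37.4 TPM in protrusions (limma adjusted p = 0.107). It passed in limma after GC correction, with a log2 fold change of 0.54 and an adjusted p of 0.0498.

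Among the carriers of di- and tricarboxylates and the uncoupling-like carriers, 1 of 6 tested members rose (*Slc25a1*), 0 fell and the median was 0.15. Over all genes 2.99% rose and 4.25% fell. *Slc25a14*, which encodes the uncoupling-like protein UCP5, had the lowest fold change of the family. It was at 7.19 and 7.48 TPM in cell bodies and 5.28 and 5.44 TPM in protrusions. The protrusion libraries were both below the cell body libraries, with a log2 fold change of −0.42 (interval −0.82 to −0.01, limma adjusted p = 0.151). The dicarboxylate carrier *Slc25a10*, the oxoglutarate carrier *Slc25a11*, the oxodicarboxylate carrier *Slc25a21* and the uncoupling-like *Slc25a30* lay between −0.08 and 0.35 and did not pass. *Slc25a11*, a part of the malate-aspartate shuttle, was at 77.0 and 71.7 TPM in cell bodies and 84.8 and 84.8 TPM in protrusions.

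Among the carriers of amino acids, glutathione and acylcarnitines, 1 of 8 tested members rose (*Slc25a39*), 0 fell and the median was 0.20. Over all genes 2.99% rose and 4.25% fell. In 5 of the 8 both protrusion libraries were above both cell body libraries, and in 2 below. Over all genes tested these shares were 26.4% above and 37% below. *Slc25a12*, the aspartate/glutamate carrier that completes the malate-aspartate shuttle with *Slc25a11*, was at 35.6 and 35.6 TPM in cell bodies and 35.3 and 31.7 TPM in protrusions (log2 fold change −0.09, interval −0.40 to 0.22). Its relative *Slc25a13*, or citrin, which is abundant in liver and 77.3% identical in the translated coding sequence, was at 0 and 0.0247 TPM in cell bodies and 0.261 and 0.0564 TPM in protrusions, and was under the minimum. It was highest in protrusions replicate 1, where the liver genes were highest too, and the part of liver RNA in this was not tested.

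The ornithine carrier of the urea cycle, *Slc25a15*, was at 14.1 and 13.7 TPM in cell bodies and 17.8 and 18.9 TPM in protrusions. The fractions did not overlap, but the log2 fold change of 0.39 (interval 0.05 to 0.72) did not pass (limma adjusted p = 0.123). Its copy *Slc25a2* was at 0.241 and 0.630 TPM in cell bodies and 0.440 and 0.218 TPM in protrusions. The glutamate carrier *Slc25a22* was at 6.03 and 8.19 TPM in cell bodies and 8.81 and 9.62 TPM in protrusions (log2 fold change 0.37, interval −0.13 to 0.86). Its fold change was 0.16 without cell bodies replicate 1 and 0.57 without cell bodies replicate 2. The acylcarnitine carrier *Slc25a20*, the glycine carrier *Slc25a38* and the branched-chain amino acid carrier *Slc25a44* lay between −0.03 and 0.22.

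The mitoferrins bring iron into mitochondria for heme and iron-sulfur clusters. *Slc25a37*, the mitoferrin of developing red cells, was at 32.6 and 58.2 TPM in cell bodies and 39.1 and 39.0 TPM in protrusions. The cell body replicates lay on both sides of the protrusions, and the fold change of −0.16 (interval −0.82 to 0.50) had among the widest intervals of the family and became −0.57 without cell bodies replicate 1 and 0.26 without cell bodies replicate 2. *Slc25a28*, the more widely used mitoferrin and 67.4% identical in the translated coding sequence, was at 18.7 and 18.0 TPM in cell bodies and 17.7 and 22.7 TPM in protrusions (log2 fold change 0.13, interval −0.28 to 0.53). For *Slc25a28* too the fractions overlapped, and the ratio of *Slc25a28* to *Slc25a37* was 0.31 to 0.58 over the 4 libraries.

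The last group held members of the outer membrane or without a substrate named here. *Slc25a46*, which sits in the outer membrane and takes part in the shaping of mitochondria, had the smallest difference of the tested members whose fractions did not overlap, at 32.8 and 33.5 TPM in cell bodies and 33.9 and 34.6 TPM in protrusions (log2 fold change 0.05, interval −0.25 to 0.34). *Slc25a47*, a carrier of liver, was at 2.83 and 2.93 TPM in cell bodies and 2.49 and 2.30 TPM in protrusions, so it did not follow the liver genes of protrusions replicate 1. *Slc25a43* and *Slc25a45* had log2 fold changes of −0.05 and −0.07. The other 10 members of the family were under the minimum of 1 TPM and were not tested: *Slc25a2*, *Slc25a13*, *Slc25a23*, *Slc25a27*, *Slc25a29*, *Slc25a34*, *Slc25a35*, *Slc25a42*, *Slc25a48* and *Slc25a53*. Their mean TPM ran from 0.0098 for *Slc25a48* to 0.899 for *Slc25a29*. The minimum left them out, so the main fit does not address whether they differ between the fractions. The paralogs *Slc25a34*, at 0 to 0.0876 TPM, and *Slc25a35*, at 0.161 to 0.406 TPM, were both among them, and *Slc25a35* overlaps *Rangrf* on the opposite strand.

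Carriers that bear other symbols were compared with the members. *Mtch1*, an outer membrane member of the carrier fold that inserts proteins, was at 126 and 101 TPM in cell bodies and 169 and 178 TPM in protrusions. The fractions did not overlap, with a log2 fold change of 0.62 and a limma adjusted p of 0.0534 without the block and 0.00849 with it. The *Mtch1* transcript had 61.2% GC, and no GC-corrected value is given for it here. *Mtch2* was at 146 and 150.2 TPM in cell bodies and 140.3 and 141 TPM in protrusions (log2 fold change −0.07). The uncoupling proteins *Ucp2* and *Ucp3* were at 0.0538 TPM or less in every library.

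Of the proteins that import the carriers, 1 of 15 tested rose and 0 fell, against 2.99% and 4.25% of all genes. The median log2 fold change of the 15 was 0.05. The one that rose was *Tomm40*, which encodes the pore of the TOM complex, at 73.1 and 68.8 TPM in cell bodies and 113 and 129 TPM in protrusions. The fractions did not overlap and the log2 fold change was 0.76 (SE 0.12, limma adjusted p = 0.0366). The *Tomm40* transcript had 61.5% GC, above the 60.9% of the highest tested carrier, and no GC-corrected value is given for it here. With the replicate block limma called *Tomm6* higher as well and *Agk*, a subunit of the TIM22 complex, lower. The block gave 8.08% of all genes as higher and 13.3% as lower. *Agk* was at 21.8 and 24.8 TPM in cell bodies and 14.9 and 16.4 TPM in protrusions (log2 fold change −0.56, limma adjusted p = 0.0691, and 0.0303 with the block).

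A list of 19 tested transport proteins of mitochondria outside the family held the pyruvate carrier, sideroflexins, VDAC channels and the calcium uniporter, among others. In it 0 passed in either direction, and with the block 1 was lower. Over all genes 2.99% were higher and 4.25% lower, and with the block 8.08% and 13.3%. The median log2 fold change of the 19 was 0.09 and 13 of 19 lay above 0. *Slc8b1*, the sodium/calcium exchanger of mitochondria, was in this list and among the other Slc genes.

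Among the 123 other Slc genes tested, 12 were lower (9.76%) and 0 higher, against 4.25% lower and 2.99% higher over all genes. With the block 46 were lower and 1, the creatine transporter *Slc6a8*, was higher. The block gave 13.3% of all genes as lower and 8.08% as higher. The 3 other Slc genes with the smallest p were *Slc30a6*, a zinc transporter of the Golgi, *Slc35f6* and the nucleoside transporter *Slc29a1*. *Slc30a6* was at 18.2 and 18.1 TPM in cell bodies and 8.46 and 7.14 TPM in protrusions (log2 fold change −1.17, limma adjusted p = 0.0342). *Slc35f6* and *Slc29a1* had log2 fold changes of −1.02 and −0.80 (limma adjusted p = 0.0356 and 0.0392). At least 2-fold lower were 6 of the 123, 0 of the 33 carriers and 255 of all 11400 genes tested. At least 2-fold higher were 0 of the 123, 0 of the 33 carriers and 102 of all genes. The counts go by symbol and include 7 tested genes whose symbol carries a suffix, among them the scaffold gene *Slc9a3r1* and the pseudogene *Slc2a4rg-ps*, which encode no transporter, and 0 of the 7 were called.

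The fold changes moved with the base composition of the transcripts. Across the 33 carriers, whose transcripts had a GC content of 39.7% to 60.9%, Spearman's rho between GC content and log2 fold change was 0.44, and it was 0.43 over 122 other Slc genes and 0.38 over 11313 genes of all kinds. Genes are not independent replicates, the values share the 4 libraries, and these correlations are descriptions. *Slc25a39* and *Slc25a1*, with the largest fold changes, had 59.7% and 59.1% GC, and *Slc25a40*, with the lowest fold change after *Slc25a14*, had 39.7%. After each library was corrected for GC content, 25 of the 33 carriers and 14 of the other Slc genes lay above 0, *Slc25a39* and *Slc25a3* still passed at 0.66 and 0.64, and *Slc25a16* had the largest fold change at 0.85. Transcript length showed a rho of −0.20 over the carriers. The part of base composition in these differences was not tested further.

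**Figure D5:**
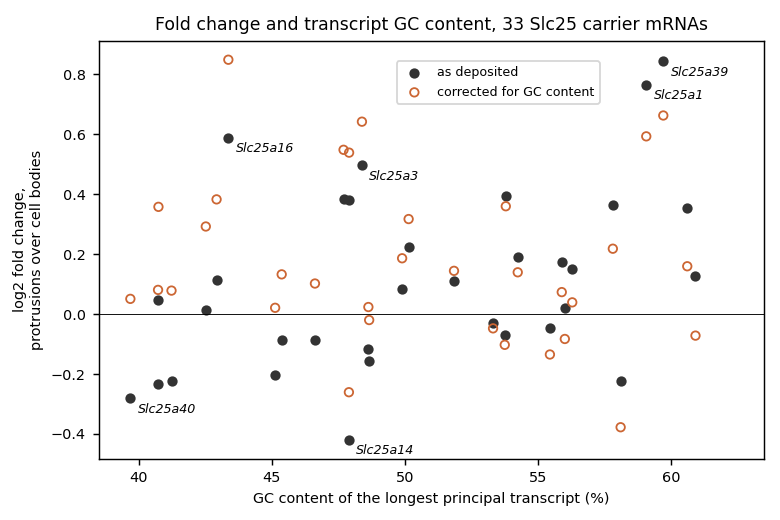
Log2 fold change, protrusions over cell bodies (y), against the GC content of the transcript (x, %) for the 33 tested carriers, as deposited (black) and after each library was corrected for GC content (orange). Without the correction the points rise from left to right (Spearman's rho 0.44), and with it *Slc25a40* moves from −0.28 to 0.05 and *Slc25a39* from 0.84 to 0.66.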

How the data were processed

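The authors deposited 1 table of 16537 genes with TPM per library, made from strand-specific reads of ribosomal RNA-depleted total RNA and given with mm10 coordinates. The paper's methods name TopHat, while the notes of the submitters list edgeR, featureCounts, STAR and FastQC without versions. No source used here gives the gene annotation. The deposited log2 values are the authors' mean log2 CPM per gene and the log2 fold change of their edgeR comparison. The fold change, likelihood ratio, p-value and FDR columns of that comparison were not used.

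The members and gene lists were chosen with earlier results of these data known. The design named a count model for counts and limma for TPM, and since the table holds TPM, limma 3.58.1 (R 4.3.3) was fitted with a trend to log2(TPM + 0.5) of 11400 genes whose mean TPM was 1 or more. Tests were two-sided, p-values were adjusted by Benjamini-Hochberg over all genes tested, and calls were made at an adjusted p under 0.05. Fold changes on this scale understate those of low genes. Intervals are limma's 95% confidence intervals, and each SD is that of 2 TPM values. The fit was also run on simulated libraries drawn without a replicate effect, so that run does not test it on paired libraries.

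The sources head the values of a replicate number as paired, and within a number both fractions deviated from their means together (correlation 0.45 across 11400 genes). The number was therefore taken to pair the libraries. The main fit had no block and does not use this pairing, and every interval and SE comes from it. The fit with the number as a block is given for the called carriers and where it changed a call.

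Ratios of a gene's TPM gave whole reads within 0.01 for all 16537 genes, with the scale set by the mean log2 CPM. They served for depth and for limma voom, and those of genes with few reads are uncertain. GC content, transcript length and coding sequences came from GENCODE M21 (GRCm38, the build also called mm10), with 15710 symbols matched directly and 642 by a RefSeq synonym. For the GC correction a natural spline over GC content was subtracted from each library.

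Members named with the value of each library are those called with or without the block, the 5 most abundant, the 3 highest and 3 lowest fold changes, a fixed set of paralogs, *Slc25a17* and *Slc25a46*. *Slc25a11*, *Slc25a47* and *Slc25a51* were added after their values were seen. Values are given for at most 3 members of each other list, those of smallest p, and further genes of these lists are named for their level, their call with the block or their place in a list. RefSeq lists 47 genes of the family by symbol, of which 43 were analysed here. Genes of the mitochondrial genome were not analysed here, and the values of a few genes are not reported here, though counts and medians include them.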

Additional observations from a re-analysis of the deposited data

How the results depend on the processing

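The count of 3 carriers higher in protrusions and 0 lower stayed at 3 and 0 with a pseudocount of 0.1 or 1, a minimum of 5 TPM, quantile normalization, the GC correction and limma voom on the recovered reads. With the GC correction the carriers called were not the same, as *Slc25a1* no longer passed and *Slc25a51* passed beside *Slc25a3* and *Slc25a39*. The count became 4 with the replicate block, in which the number pairs the libraries, and the block changed no other call of a carrier. It became 6 with the GC correction and the replicate block (*Slc25a1*, *Slc25a3*, *Slc25a15*, *Slc25a16*, *Slc25a39* and *Slc25a51*). It became 0 with no minimum on TPM, 0 in limma without the trend and 0 to 0 when 1 library was left out. With no minimum the limma adjusted p was 0.0868 for *Slc25a39*, 0.0940 for *Slc25a1* and 0.0988 for *Slc25a3*, and without the trend 0.0750, 0.0789 and 0.0942. The other Slc genes were called lower in 12 cases, and in 0 with no minimum, 24 at a minimum of 5 TPM, 46 with the replicate block, 0 without the trend, 60 with the GC correction and replicate block, 28 in limma voom and 0 to 3 without 1 library. They were called higher in 0 cases, and in 1 with a minimum of 5 TPM, 1 with the block, 1 with the GC correction and block and 1 in limma voom. Their median was −0.13 with no minimum.

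All 826 calls over the whole table were also made with the block. Of all genes, limma called 341 higher and 485 lower, 505 and 801 at a minimum of 5 TPM, 921 and 1513 with the block, 1616 and 1657 with the GC correction and block, and 777 and 889 with voom. No gene was called with no minimum (1468 higher and 2162 lower at an unadjusted p under 0.05), without the trend (1314 and 2102), or without cell bodies replicate 1 (1167 and 1990), cell bodies replicate 2 (1167 and 1195) or protrusions replicate 2 (836 and 1063), and 14 and 144 were called without protrusions replicate 1. A fit without 1 library assumes that the lone library of a fraction varies like the other fraction.

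Of 19 named carriers, 11 kept their direction in all 14 alternatives. With the GC correction, with or without the block, *Slc25a40* turned to 0.051, *Slc25a36* to 0.081, *Slc25a5* to 0.023, *Slc25a12* to 0.10, *Slc25a17* to 0.021 and *Slc25a28* to −0.072, values within their intervals. Leaving out 1 library gave −0.088 to 0.12 for *Slc25a24*, −0.57 to 0.26 for *Slc25a37* and −0.050 to 0.30 for *Slc25a28*. Without cell bodies replicate 2, *Slc25a40* was at −0.16 and *Slc25a36* at −0.14, and without protrusions replicate 2, *Slc25a17* was at −0.12. The causes were not tested. With 2 libraries a fraction the calls depend on how limma shares the spread between genes, and a carrier that did not pass is not shown to be evenly spread.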
